A study of Mus musculus with 6 samples.

Results

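The endoplasmic reticulum (ER) genes described here are Hspa5, Fkbp7, Alg2, Extl2, Tram1 and Tmco1, 6 of 7486 genes with a probe set of their own. They were chosen by their role in protein folding, glycosylation or translocation and from the siDicer against siScr differences of these same arrays, paired by replicate number. Those differences are therefore a description for the 6 genes, and no p is given for them. The cells were Melan-a, an immortal line of pigmented melanocytes from female C57BL/6 mice. They received siDicer, a small interfering RNA that targets Dicer, or siScr, its control, and were collected 24 hours later, with 3 arrays per group from cells at passages 47, 54 and 56. Both groups were grown with serum and the phorbol ester TPA and received the same lipid and magnetic transfection reagents, so neither is an untransfected culture. The Dicer1 transcript was not analysed here, so the groups rest on their labels, and the results come from 1 cell line.

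Proteins bound for the cell surface, the melanosome or secretion enter the ER through a translocon in its membrane, receive N-linked glycans built on a dolichol carrier, and are folded by chaperones of the lumen. When unfolded protein accumulates, the sensors of the unfolded protein response raise chaperone genes, of which Hspa5 is the classic example. Melanocytes rely on this route for their melanin-synthesis enzymes, which are glycosylated membrane proteins.

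Values are log2 signals of Clariom D probe sets, and a difference of 1 log2 unit is a doubling. Each of the 6 genes had 1 probe set. All 6 lay above 4.22 log2 units, the 95th percentile of 426 olfactory and vomeronasal receptor genes, which served as a gauge of background. Levels of different genes are not compared, since probe sets differ in brightness. In bulk RNA, more transcript per cell and a larger share of cells with the transcript cannot be told apart.

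Hspa5 encodes BiP, the main Hsp70-type chaperone of the ER lumen. It was at 10.25, 10.31 and 10.27 log2 units in siDicer cells of passages 47, 54 and 56, against 10.15, 10.23 and 10.22 in siScr cells of the same passages. The groups were parted by 0.03 log2 units only. The mean difference was 0.08 ± 0.06 log2 units (SE), or 1.06-fold, and it was 0.05 after quantile normalization and 0.03 after cyclic loess.

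Fkbp7 encodes a prolyl isomerase of the ER lumen. It was at 6.72, 6.82 and 6.84 log2 units in siDicer cells of the 3 passages, against 6.14, 6.29 and 5.94 in siScr cells. Every siDicer array lay above every siScr array, by at least 0.43 log2 units. The difference of 0.68 ± 0.09 (SE), 1.60-fold, was the largest of the 6 genes, and 8 of 16383 probe sets had a larger rise. Its SD was 0.07 in siDicer cells and 0.17 in siScr cells (n = 3 each), and the passage 56 siScr array was the lowest.

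Promoter windows from 250 bases before to 50 after the start were taken from RefSeq (build GRCm38.p6), which gave 1 window each for Hspa5, Fkbp7 and Tmco1 and 2 for Extl2; Alg2 and Tram1 were not matched. Those of Hspa5 and Fkbp7 are shown because both genes encode lumenal folding proteins but had unlike differences. Capitals mark 3 short motifs on either strand, namely CCAAT, the partner site CCACG with which it forms a longer element, and the separate motif TGACGT.
Hspa5, chr2:34771840-34772139, plus strand: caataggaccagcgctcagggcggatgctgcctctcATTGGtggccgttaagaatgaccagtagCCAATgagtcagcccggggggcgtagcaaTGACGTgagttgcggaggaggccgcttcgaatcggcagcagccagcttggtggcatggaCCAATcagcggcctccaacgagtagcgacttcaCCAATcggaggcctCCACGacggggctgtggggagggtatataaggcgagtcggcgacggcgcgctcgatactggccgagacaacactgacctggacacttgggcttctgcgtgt
Fkbp7, chr2:76673049-76673348, minus strand: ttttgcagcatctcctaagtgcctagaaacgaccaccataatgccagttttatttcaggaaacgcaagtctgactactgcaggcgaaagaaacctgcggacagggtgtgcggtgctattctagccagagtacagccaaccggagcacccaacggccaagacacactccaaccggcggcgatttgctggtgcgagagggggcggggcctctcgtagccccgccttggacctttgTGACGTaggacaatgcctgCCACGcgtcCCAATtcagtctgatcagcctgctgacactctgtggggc

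The ER stress element, the site through which the unfolded protein response acts on chaperone genes, reads CCAAT, then 9 bases of any kind, then CCACG. The Hspa5 window holds this exact form once on the gene's strand, from position -65 to -47 counted from the start. Inexact forms of the element were not searched for, so their number in the window is not given. The same window also holds 3 further CCAAT boxes and 1 TGACGT, the core bound by factors of the ATF family. The full element in its exact form is in none of the other windows, and was found in 39 of 32851 promoter windows (0.119%). The Fkbp7 window has each of the 3 short motifs once, not in that spacing. Over all windows, CCAAT occurred in 37.4%, CCACG in 32.8% and TGACGT in 7.51%. The full element contains a CCAAT and a CCACG, so those counts overlap with it. Such matches describe the letters and not the use of a site.

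Alg2 encodes the mannosyltransferase that adds early mannoses to the dolichol-linked precursor of N-glycans. It was at 8.88, 8.74 and 8.88 log2 units in siDicer cells of passages 47, 54 and 56, against 8.30, 8.20 and 8.23 in siScr cells. The groups did not overlap, with a gap of 0.44 log2 units. The difference was 0.59 ± 0.07 (SE), or 1.51-fold.

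Extl2 encodes a glycosyltransferase of the exostosin family, which acts on the glycosaminoglycan chains of proteoglycans and not on N-glycans. It was at 7.34, 7.33 and 7.41 log2 units in siDicer cells, against 6.81, 6.83 and 6.73 in siScr cells. Both groups were tight, with SDs of 0.04 and 0.05 in siDicer and siScr cells (n = 3 each). The gap between them, 0.50 log2 units, was the widest of the 6 genes. The difference was 0.57 ± 0.06 (SE), or 1.48-fold.

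Tmco1 encodes an ER membrane protein reported as a calcium channel and as a part of the translocon for multi-pass membrane proteins. It was at 8.77, 8.89 and 8.85 log2 units in siDicer cells of the 3 passages, against 8.14, 8.34 and 8.24 in siScr cells. The groups did not overlap, and the gap was again 0.43 log2 units. The difference was 0.59 ± 0.07 (SE), or 1.51-fold.

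Tram1 encodes the translocating chain-associated membrane protein, which stands beside the Sec61 channel as nascent chains pass. It was at 10.48, 10.41 and 10.55 log2 units in siDicer cells, against 10.45, 10.34 and 10.52 in siScr cells. Here the groups overlapped, and the passages were in the same order in both. The difference was 0.04 ± 0.07 (SE). It turned to -0.01 after quantile normalization and after cyclic loess, so Tram1 has no stable direction.

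**Figure D1:**
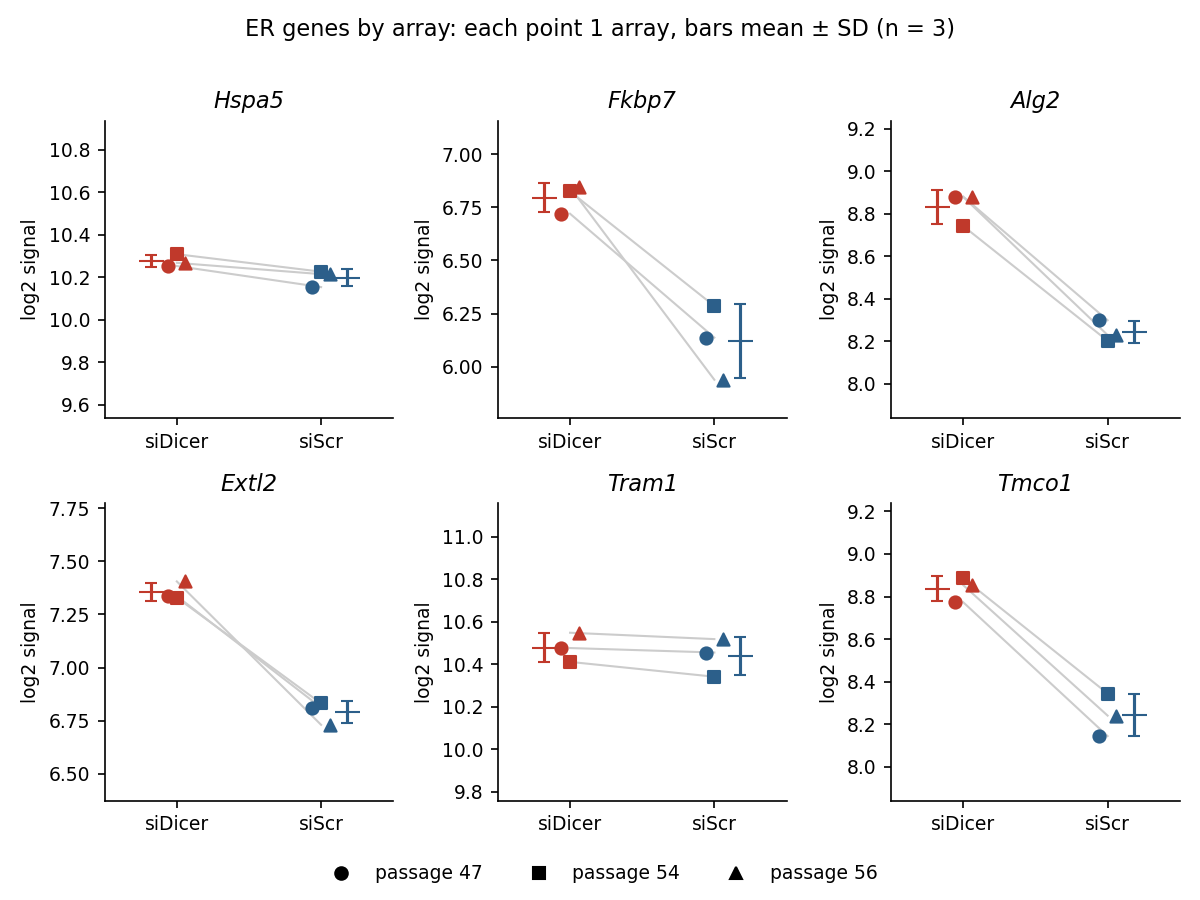
Log2 signal of the 6 genes on each array, siDicer on the left and siScr on the right of each panel, every panel spanning the same range. Marker shapes give the passage, grey lines join arrays of the same passage, and bars are the mean ± SD (n = 3). Fkbp7, Alg2, Extl2 and Tmco1 part by at least 0.43 log2 units, while Hspa5 and Tram1 lie nearly level.

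The 6 genes thus fall into a set of 4 with differences from 0.57 to 0.68 and a pair with 0.08 and 0.04. Within pairs of the same passage, Fkbp7 differed by 0.58, 0.54 and 0.90 log2 units at passages 47, 54 and 56. For Alg2 the differences within pairs were 0.58, 0.54 and 0.65, and for Extl2 0.52, 0.50 and 0.67. In these 3 genes the passage 56 pair had the largest difference and the passage 54 pair the smallest. Tmco1 did not share that order, with 0.63, 0.54 and 0.61. All pairs of Hspa5 and Tram1 were above 0 as well, at 0.10, 0.08 and 0.05 for Hspa5 and at 0.02, 0.07 and 0.03 for Tram1. Both genes had a mean level above 10. Of all probe sets at such levels, 75.8% lay above 0 in the deposited values and 53.7% after cyclic loess. The part of brightness in these small differences was not tested.

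**Figure D2:**
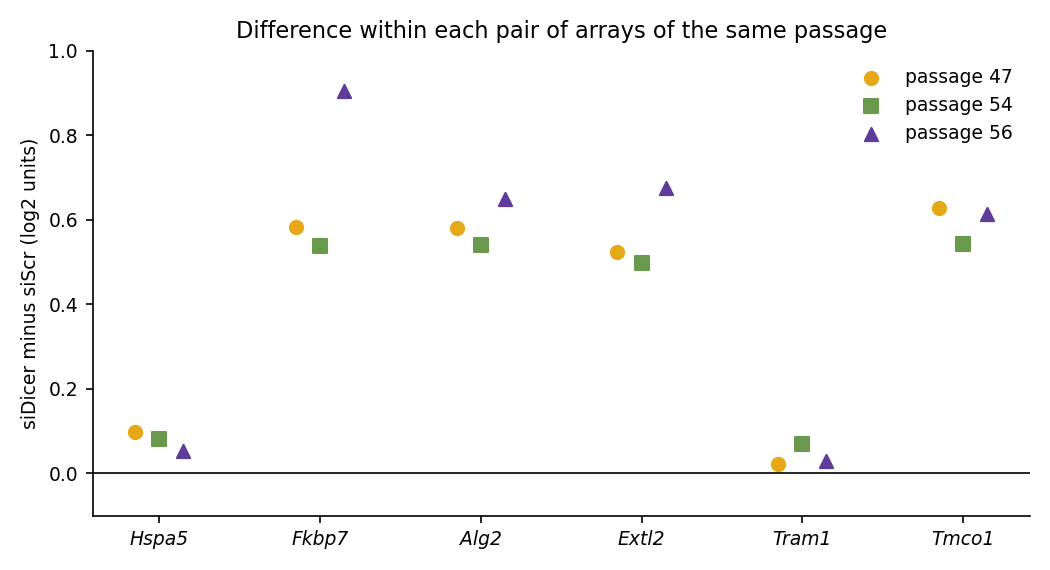
Difference of siDicer minus siScr in log2 units for each gene within pairs of arrays at passages 47, 54 and 56. All 18 points lie above 0 in the deposited values, and those of Fkbp7, Alg2, Extl2 and Tmco1 lie at or above 0.50 after rounding. Hspa5 and Tram1 have a level above 10, where most probe sets lay above 0 in the deposited values.

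In limma over all 16383 probe sets, 4 of the 6 genes passed an adjusted p (Benjamini-Hochberg) under 0.05 upward, where 0.146% of all probe sets did so. With replicate number as a block the same 4 passed, against 0.757% of probe sets. Arrays did not overlap, with siDicer higher, for 5 of the 6, against 7.57% of probe sets. With any 1 array left out, the calls without the block were lost, except that Fkbp7, Extl2 and Tmco1 still passed without siScr replicate 2. These counts follow from how the genes were chosen, and nothing is read from them.

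Other genes of the same pathways were described from lists. Of 280 genes in 6 lists covering chaperones, N-glycans, translocation, the unfolded protein response, heparan sulphate and ER exit, 81 were measured beside the 6, most named probe sets (7439 of 7530) lying on chromosomes 1 to 4. None of the 81 passed without the block (limma), where 0.146% of probe sets passed upward and 0.0671% downward; at an unadjusted p under 0.05, 18 were higher and 2 lower, against 6.01% and 4.16% of all probe sets. With the block 2 rose, P3h1 and Man1c1, and 0 fell, against 0.757% of probe sets upward and 0.238% downward. At an unadjusted p under 0.05 the block gave 28 higher and 4 lower, against 8.82% and 6.85% of all probe sets. The differences of the 81 had a median of 0.10 log2 units, with 59 above 0, where all probe sets had a median of -0.01 and 44.4% above 0. In 24 of the 81 the arrays did not overlap with siDicer higher, and in 5 with siDicer lower, against 7.57% and 8.29% of all probe sets.

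Bright probe sets as a class leaned upward in the deposited values. Those with a level from 8 to 9 had a median of 0.03, 58.1% above 0 and 17.2% without overlap upward. Among the brightest, at a level of 10 or more, 75.8% lay above 0, and after cyclic loess 53.7%. After quantile normalization the 81 genes had a median of 0.06 with 18 not overlapping upward, against 1174 of 16383 probe sets. After cyclic loess the 81 genes again had a median of 0.06, with 19 not overlapping upward, against 1310 of 16383 probe sets. Above the background gauge lay 80 of the 81 genes and 9475 of 16383 probe sets, so these comparisons were not matched in brightness. Of probe sets with a level from 8 to 9, 14.02% were without overlap upward after quantile normalization and 13.2% after cyclic loess. At a level of 10 or more these were 5.70% and 4.75%. The part of brightness in these medians and counts was not tested further.

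**Figure D3:**
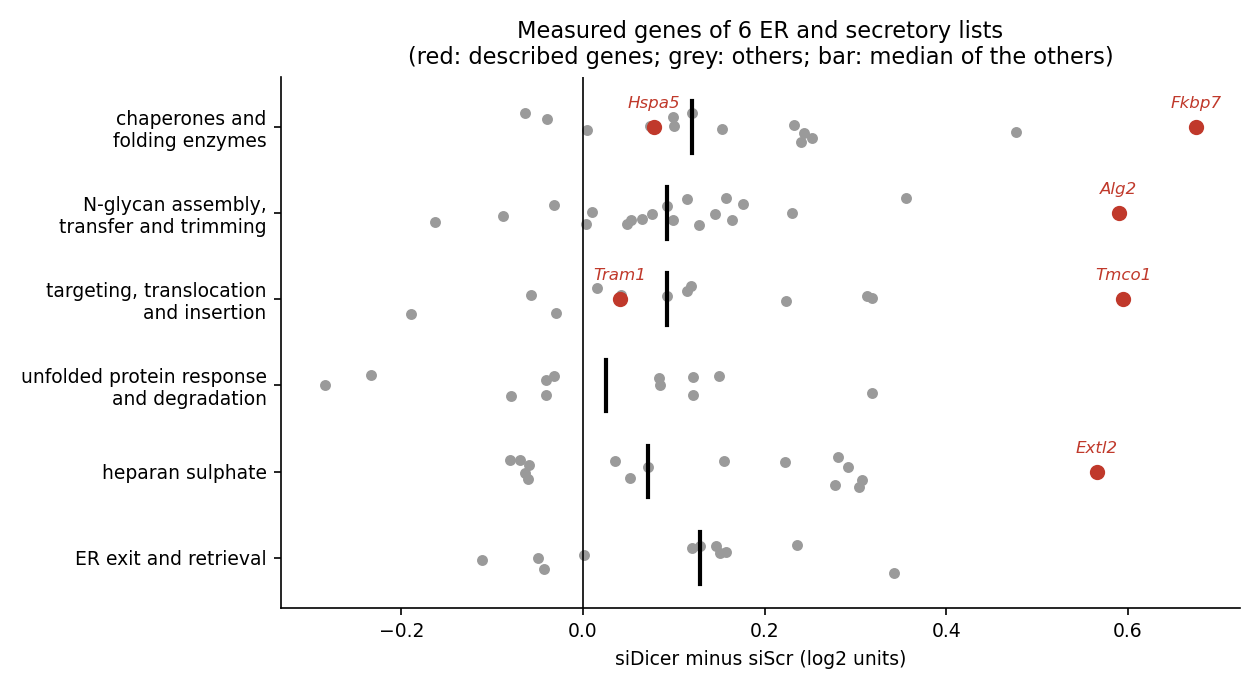
Difference of siDicer minus siScr in log2 units for each measured gene of 6 lists. Red points are the 6 described genes, grey points the other measured genes and black bars the medians of the grey points, which lie between 0.03 and 0.13; after quantile normalization that of the unfolded protein response is -0.01. Fkbp7, Alg2, Tmco1 and Extl2, chosen in part from these differences, lie to the right of every grey point, and nothing is read from that.

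Among chaperones and folding enzymes, 13 others were measured, with a median difference of 0.12 and 11 above 0. P3h1, a prolyl hydroxylase that modifies procollagen in the ER, was at 7.75, 7.53 and 7.64 log2 units in siDicer cells, against 7.22, 7.16 and 7.10 in siScr cells. Its groups did not overlap, and its difference was 0.48 (SE 0.06 with the block and 0.07 without it). P3h1 passed limma with the block (adjusted p = 0.0371) but not without it (adjusted p = 0.0584). Erp44, a thiol protein that retains unassembled proteins, differed by 0.24 ± 0.06 (adjusted p = 0.244, limma). For Dnajc10, a disulphide reductase with a J domain that works with BiP, the difference was 0.25. Its SE was 0.09 without the block (limma, adjusted p = 0.409) and 0.06 with it (adjusted p = 0.116).

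In N-glycan assembly, transfer and trimming, 19 others were measured, with a median of 0.09 and 16 above 0. Man1c1, an alpha-mannosidase of the Golgi that trims the glycan after it leaves the ER, was at 9.62, 9.47 and 9.67 log2 units in siDicer cells, against 9.25, 9.16 and 9.28 in siScr cells. Its difference was 0.36 (SE 0.05 with the block and 0.07 without it). Man1c1 passed limma with the block (adjusted p = 0.0496) and not without it (adjusted p = 0.135), nor with the block after cyclic loess (adjusted p = 0.0662). Ddost, a subunit of the oligosaccharyltransferase, differed by 0.16 ± 0.06 (adjusted p = 0.452). Dolk, which phosphorylates dolichol, was on the other side at -0.16 ± 0.07 (adjusted p = 0.481), with every siDicer array below every siScr array.

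Targeting, translocation and membrane insertion had 11 others measured, 0 of them past the threshold, with a median of 0.09 and 8 above 0. Ssr2 and Ssr3 encode subunits of the translocon-associated protein complex. Ssr2 was at 10.78, 10.78 and 10.85 log2 units in siDicer cells, against 10.34, 10.58 and 10.53 in siScr cells, without overlap. Its difference was 0.32 ± 0.08 (limma, adjusted p = 0.202), and that of Ssr3 was 0.22 ± 0.06 (adjusted p = 0.239). Emc7, a subunit of the ER membrane protein complex, which inserts transmembrane segments, differed by 0.31. Its SE was 0.11 without the block (limma, adjusted p = 0.387) and 0.06 with it (adjusted p = 0.0763).

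Hspa5 is itself a target of the unfolded protein response, whose list included ER-associated degradation. Of the 44 genes on that list only 12 were measured. Ern1, Eif2ak3, Xbp1, Atf4 and Ddit3 were not among them, so the response was covered only in part. Of the 12 measured genes 0 passed without or with the block (limma). An unadjusted p under 0.05 was reached by 0 without it and by 4 with it (2 higher, 2 lower). Of all probe sets, 6.01% were higher and 4.16% lower at that p without the block, and 8.82% and 6.85% with it. Of the 12, 6 were above 0, and the median was 0.03, or -0.01 after quantile normalization. Atf6, the membrane-bound sensor that raises chaperone genes after cleavage, was at 8.67, 9.14 and 8.88 log2 units in siDicer cells, against 8.37, 8.85 and 8.50 in siScr cells. Its groups overlapped, and in both the passage 47 array was the lowest and the passage 54 array the highest. The difference was 0.32, with an SE of 0.15 without the block (limma, adjusted p = 0.509) and 0.05 with it (adjusted p = 0.0660). Without siDicer replicate 2 the difference was 0.20. Chac1, a glutathione-degrading enzyme raised by the ATF4 branch, lay the other way at -0.28, and at -0.13 without siScr replicate 2. The SE of Chac1 was 0.13 without the block (limma, adjusted p = 0.512) and 0.07 with it (adjusted p = 0.155). Ube2j1, a ubiquitin-conjugating enzyme of the ER membrane, differed by 0.15 ± 0.08 (adjusted p = 0.567), and by 0.08 without siScr replicate 1.

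Extl2 belongs with the heparan sulphate genes, of which 15 others were measured, with 0 past the threshold, 10 above 0 and a median of 0.07. Ext2, a subunit of the polymerase that extends heparan sulphate and a relative of Extl2, was at 8.14, 8.09 and 8.11 log2 units in siDicer cells, against 7.78, 7.87 and 7.86 in siScr cells. Its difference was 0.28 ± 0.06 (limma, adjusted p = 0.151), with no overlap. Sdc3, a syndecan that carries such chains, differed by 0.29 ± 0.06 (adjusted p = 0.129 without and 0.0786 with the block). For Hs2st1, a sulphotransferase of the chain, the difference was 0.30 ± 0.07 (adjusted p = 0.177 without and 0.0756 with the block).

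ER exit and retrieval had 11 genes measured, 0 past the threshold, with a median of 0.13 and 8 above 0. Sec24d, a cargo-binding subunit of the COPII coat, differed by 0.34. Its SE was 0.11 without the block (limma, adjusted p = 0.341) and 0.05 with it (adjusted p = 0.0503). Lman2l, a lectin of the early secretory pathway, differed by 0.24, with an SE of 0.09 without the block (limma, adjusted p = 0.418) and 0.05 with it (adjusted p = 0.127). For Mia3, which loads bulky cargo such as collagen at ER exit sites, the difference was 0.16 ± 0.06 (adjusted p = 0.448). In 7 of these 11 genes the arrays did not overlap with siDicer higher, against 7.57% of all probe sets. After quantile normalization this held for 4, against 7.17% of all probe sets. Neither comparison was matched in brightness.

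Of 8 measured relatives of the 6 genes, 0 passed the threshold in limma, where 0.146% of all probe sets passed upward and 0.0671% downward. At an unadjusted p under 0.05, Ext2 was higher and Tram1l1 lower, against 6.01% and 4.16% of all probe sets. Tram2 and Tram1l1, the paralogs of Tram1, had differences of 0.12 ± 0.08 and -0.19 ± 0.07 (adjusted p = 0.677 and 0.424), that of Tram2 being 0.05 without siDicer replicate 2. Tram1l1 was dim, with a mean of 4.74 log2 units beside the background gauge of 4.22. Of probe sets with a level from 2 to 6, 39.4% lay above 0 in the deposited values and 49.1% after cyclic loess. After cyclic loess Tram1l1 was at -0.16. Extl1, a relative of Extl2, differed by 0.04 ± 0.12 (adjusted p = 0.941). Of Hsp70 relatives of Hspa5, Hspa4l differed by 0.07 ± 0.09, Hspa12b by -0.09 ± 0.08 and Hspa14 by -0.06 ± 0.09 (adjusted p from 0.734 to 0.853). Hspa8, the cytosolic Hsp70 of unstressed cells, differed by 0.02 ± 0.06 (adjusted p = 0.934), turning negative after quantile normalization and cyclic loess. RefSeq has Hspa8 on chromosome 9 and its probe set carries a chromosome 1 number, so the value may not be that of the gene.

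Passage offered a comparison that the choice of genes did not use, since each passage held 1 array of each group. Later cultures (passages 54 and 56, 4 arrays) were set against passage 47 (2 arrays) in limma with the siRNA as a covariate. Among all probe sets 1 passed (0.0061%), with 2010 at an unadjusted p under 0.05, and none of the 6 genes passed or had an unadjusted p under 0.05. Tmco1 had the largest difference, averaging 8.58 log2 units in later cultures and 8.46 at passage 47. Its 95% interval ran from -0.02 to 0.27 around 0.12 (adjusted p = 0.448). For Alg2 the difference was -0.08, with an interval from -0.23 to 0.07, and for Hspa5 0.05, from -0.08 to 0.18. Fkbp7 had 0.04, from -0.19 to 0.28, Extl2 0.00, from -0.15 to 0.15, and Tram1 -0.01, from -0.19 to 0.17. The adjusted p ran from 0.632 to 0.999 over these 5. After quantile normalization and cyclic loess the differences of Hspa5 and Extl2 were below 0. Passage goes with the experiment, and those cannot be told apart.

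**Figure D4:**
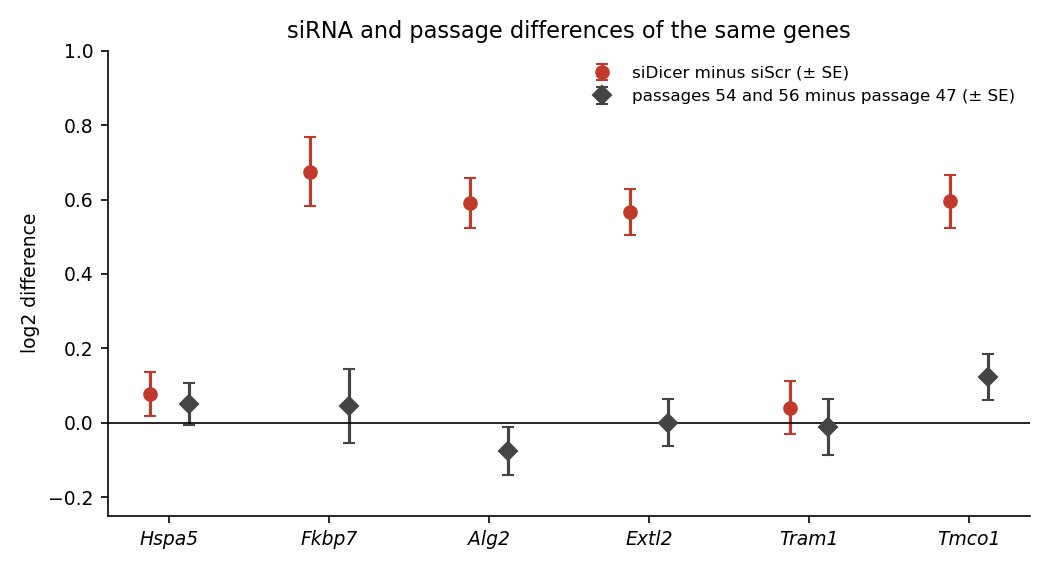
Log2 differences with standard errors for each gene, siDicer minus siScr (red circles, n = 3 against 3 arrays) and passages 54 and 56 minus passage 47 (grey diamonds, 4 against 2 arrays). Passage differences lie between -0.08 and 0.12. The genes were chosen in part from their siRNA differences and not from passage, so nothing is read from the relative sizes.

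The genes next to the 6 on the chromosome were looked up in the RefSeq gene order after the values were known. In limma, 0.146% of all probe sets passed upward and 0.0671% downward. Of the 12 nearest protein-coding genes, all of them measured, 1 passed. This was Tgfbr1, a receptor kinase for TGF-beta, which lies beside Alg2 and moved the opposite way. It was at 6.79 ± 0.11 log2 units in siDicer cells and 7.40 ± 0.07 in siScr cells (SD, n = 3 each), a difference of -0.61 ± 0.08 (SE, adjusted p = 0.0265). It did not pass with any 1 array left out, with an adjusted p from 0.0770 to 0.150. On the other side of Alg2 lies Sec61b, the beta subunit of the translocation channel, at 6.51 ± 0.06 in siDicer cells and 6.39 ± 0.06 in siScr cells (adjusted p = 0.604).

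Of the 2 annotated starts of Extl2, the second lies 891 bases from the start of Slc30a7 and its window holds none of the 3 short motifs. The first lies 43 bases from Slc30a7, a zinc transporter of the Golgi on the opposite strand, so that both share the window shown here, which holds none of the motifs either.
Extl2, chr3:116007199-116007498, plus strand: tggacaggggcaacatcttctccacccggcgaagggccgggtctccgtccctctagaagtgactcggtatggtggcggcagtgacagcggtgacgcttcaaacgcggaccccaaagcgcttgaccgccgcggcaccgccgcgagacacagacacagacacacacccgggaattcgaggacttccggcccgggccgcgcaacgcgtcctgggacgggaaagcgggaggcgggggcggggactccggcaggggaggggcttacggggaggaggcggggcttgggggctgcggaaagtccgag

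Slc30a7 was at 8.42 ± 0.10 log2 units in siDicer cells and 8.37 ± 0.09 in siScr cells (SD, n = 3 each). Its difference of 0.05 ± 0.08 (SE) stood beside 0.57 for Extl2 (limma, adjusted p = 0.852 for Slc30a7). Plekha3, the neighbour of Fkbp7 with a start on the opposite strand 2217 bases away, differed by 0.08 ± 0.06 (adjusted p = 0.680). On the other side of Fkbp7, Pjvk lay below the background gauge.

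**Figure D5:**
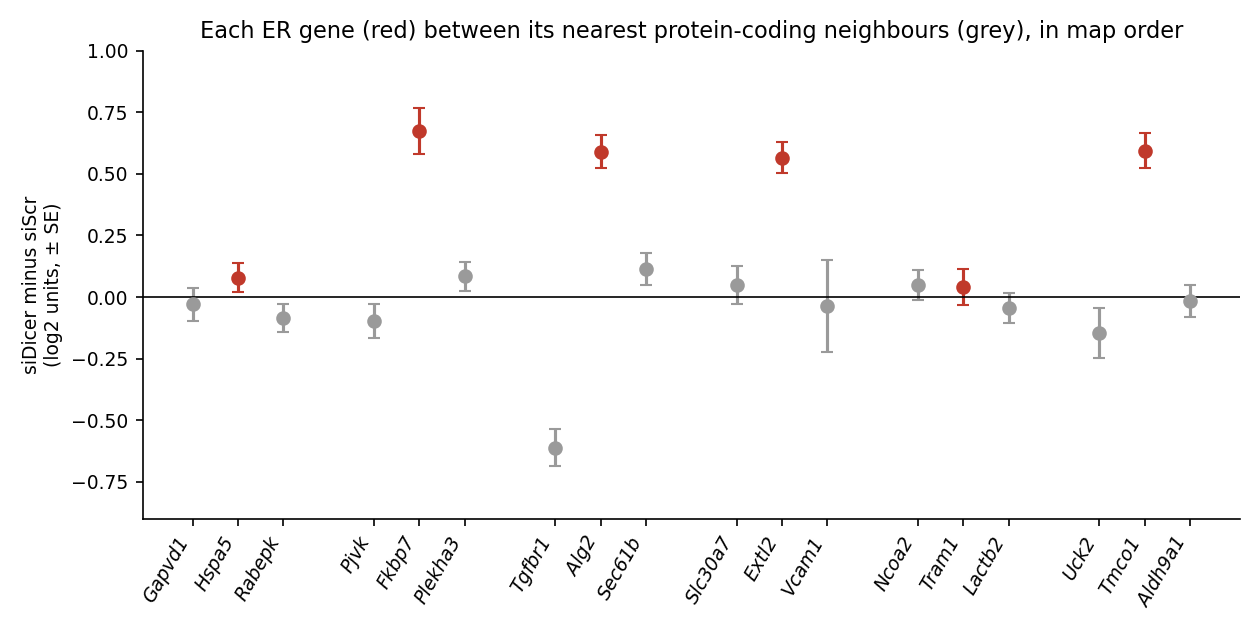
Difference of siDicer minus siScr in log2 units with its standard error for each of the 6 genes (red) between its nearest protein-coding neighbours (grey), in map order. Tgfbr1 at -0.61 stands opposite Alg2 at 0.59, and the other neighbours lie between -0.15 and 0.11.

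The genes whose levels over the 6 arrays were most like those of each of the 6 were named by Pearson's r among 3581 genes above the background gauge, predicted models left out. With 6 arrays in groups that differ, high values of r are common, and they are a description. Fkbp7 was most like Coa5 and Itgav (r = 0.994 for both), and Alg2 most like Igsf3 (0.998) and Mettl21a (0.996). For Extl2 the closest were Urod and Golim4 (r = 0.997 for both), and for Tmco1 Gpbp1l1 (0.996) and Rpl30-ps5 (0.995). Tram1, which did not follow the siRNA, was most like Alg6 (r = 0.983) and Mgat4a (0.967), both enzymes of N-glycans. Hspa5 was closest to Smt3h2-ps4 (0.995) and Snord45b (0.988).

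RNA integrity numbers ran from 9.7 to 10 and array medians from 4.58 to 4.64 log2 units. Of 16 melanocyte markers 3 were measured, Tyrp1, Pax3 and Mlph, all above the background gauge, with differences of 0.02, 0.00 and -0.12 and none past the threshold. Markers of fibroblasts, keratinocytes and immune cells had 6, 4 and 6 genes measured, 0 of 16 past the threshold in limma and 2 of the immune ones (C1qa and Fcer1g) lower at an unadjusted p under 0.05, where 4.16% of all probe sets were. With the block 3 of the immune ones were lower, against 6.85% of all probe sets, and 2 fibroblast genes higher, against 8.82%. These 2, the collagen gene Col5a1 and the matrix gene Postn, had differences of 0.19 and 0.25, above 0 in each pair. Their SEs were 0.05 and 0.06 with the block, and 0.10 and 0.16 without it. The medians of the fibroblast, keratinocyte and immune markers were -0.03, -0.07 and -0.14, and the leukocyte marker Ptprc lay below the gauge. The part of these markers in the results above was not tested.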

How the data were processed

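Total RNA of 6 Melan-a cultures was hybridised to mouse Clariom D arrays with WT PLUS labelling, per the labels' protocols. The authors deposited a log2 signal for each probe set, and the submitters' processing notes name Affymetrix Expression Console. The sources used here do not give its version, background correction or normalization, nor the build behind the probe sets. No value was changed or left out. Log2 differences of dim probe sets are compressed by background, and scaling between arrays hides a change shared by most transcripts.

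The table held 16383 probe sets, 7530 of them with 1 gene symbol in the platform annotation (230 updated through Entrez numbers) and 455 with several. The brightest probe set stood for a gene. The comparison of siDicer minus siScr used lmFit and eBayes of limma 3.58.1 under R 4.3.3, adjusted by Benjamini-Hochberg over all probe sets. Deviations from group means correlated between same-numbered arrays (r = 0.44, 0.41 and 0.24), which share a passage, so the numbers were taken as pairing them. A fit with this block is given where it changes a call or a count of calls by over 1.5 times. It is also given for some of the other named genes, but not for all of them. The fits without the block were tested on simulated data with independent noise on each array. Same-numbered arrays shared no deviation there, so the simulation cannot show how these fits behave with it. Standard errors of siDicer minus siScr are those of the fit without the block unless the block is named. The number of arrays limits the precision.

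The 6 genes, the lists and the tests were chosen with earlier results of these data known. The genes named are the 6, the 3 of smallest p in each list, any past the threshold with or without the block, measured paralogs, and the 2 of highest r for each of the 6. The neighbours were added after the values were seen. Alternatives were the block, quantile, cyclic loess and median scaling, filters on level, symbol and identical rows, a variance trend, array weights, a looser threshold, a numeric passage and leaving out each array.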

Additional observations from a re-analysis of the deposited data

Results flagged for a closer look

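In 3 of the named genes the later arrays moved one way from passage 47 in siDicer cells and the other way in siScr cells, which was not tested. Ddost changed by -0.08 and -0.03 log2 units at passages 54 and 56 in siDicer cells and by 0.07 and 0.10 in siScr cells, so the mean changes differed by -0.14. Ext2 changed by -0.04 and -0.03 in siDicer cells and by 0.10 and 0.09 in siScr cells, a difference of -0.13. For Mia3 the changes were 0.08 and 0.09 in siDicer cells and -0.08 and -0.05 in siScr cells, a difference of 0.15. Each passage has 1 array per group, and none of the 6 ER genes showed this.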

How the results depend on the processing

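Cyclic loess together with the block was chosen after seeing the data. With the replicate block, which pairs the arrays by passage, 163 probe sets passed in place of 35 and 2 list genes in place of 0. With cyclic loess as well these were 93 and 1, Man1c1 being lost. Fewer probe sets tested gave 69 (1 symbol only), array weights 66 and a threshold of 0.1 gave 99; list genes numbered 1 with the level filter, with 1 symbol only and with array weights, each time P3h1. Leaving out 1 array gave 0 to 20 probe sets, with 0 when siDicer replicate 1 or 3 or siScr replicate 3 was dropped, and 0 list genes. For passage, 2 probe sets passed with passage as a number, and leaving out 1 array gave 0 to 17, the most without siScr replicate 3.

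The direction of Fkbp7, Alg2, Extl2 and Tmco1 follows from how they were chosen. Their differences ran from 0.53 to 0.73 over 10 alternatives and from 0.54 to 0.76 without 1 array. Alg2 passed in 9 of the 10 alternatives, not passing after cyclic loess without the block. Some uncalled values turned in sign. Passage differences became -0.0549 and -0.0431 for Hspa5 and -0.0543 and -0.0284 for Extl2 after quantile and cyclic loess normalization, -0.0074 for Extl2 with array weights and 0.0112 for Tram1 after centring. Without 1 array they ran from -0.0248 to 0.129 for Fkbp7, from -0.0308 to 0.0311 for Extl2 and from -0.0468 to 0.029 for Tram1. The siRNA difference of Hspa8 became -0.0229 (quantile) and -0.0361 (cyclic loess, with or without the block), and that of Extl1 -0.0255 with array weights. Without 1 array these ran from -0.0152 to 0.0437 for Hspa8, from -0.0682 to 0.167 for Extl1 and from -0.133 to 0.0122 for Hspa14. Tgfbr1 ran from -0.652 to -0.548 and no longer passed. The causes were not tested. Each of the 6 genes had 1 probe set, so a second one gave no value.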
